A study of Mus musculus with 186 samples.

Results

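The 10 genes described here belong to the lysosome and to autophagy, and were measured in inner cells of mouse blastocysts. They are Psap, Sqstm1, Map1lc3a, Map1lc3b, Gabarapl2, Lamp1, Lamp2, Ctsd, Ctsb and Rragd. They were chosen by name, with no threshold on a measured value but with earlier results of these data known, and all 10 of 10 were among the 55421 genes of the deposited table and among the 11680 genes that passed the filter on low values. The lysosome is the acidic compartment in which cells digest proteins, lipids and worn organelles. In autophagy a double membrane closes around cytoplasm, carries proteins of the ATG8 family (LC3 and GABARAP) on its surface, and delivers the contents to the lysosome, where cathepsins degrade them. Genes of both systems are switched on together by the MiT/TFE transcription factors, which are held in the cytoplasm when the kinase mTORC1, downstream of phosphoinositide 3-kinase (PI3K), is active at the lysosome surface.

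The study compared inner cells of CD-1 embryos, picked one by one after immunosurgery had removed the outer layer, by RNA sequencing of polyadenylated transcripts primed from their 3′ end. Fresh embryos were taken at E3.25 (19 cells), E3.75 (22 cells) and E4.0 (14 cells), with no treatment. Embryos of E2.75 were cultured in KSOM medium with 10 µM LY294002 (LY), which inhibits PI3K, or with its solvent DMSO, for 16 hours (31 cells in each arm) or 24 hours (28 cells with DMSO and 24 with LY). The unit of replication was the experiment, that is, all cells of a group that carry the same collection date: each fresh stage has 2, each cultured group has 3, and there are 18 in all. The labels name no genetic change in any group. Experiments mix several litters, so the embryo of origin of a cell was not used, and p-values measure the spread between collection dates. At each culture time LY and DMSO were run on the same 3 dates. All 16-hour experiments have later date labels than the 24-hour and fresh ones, so culture time, and 16 hours of culture against fresh embryos, cannot be told apart from date.

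A value below is the mean over the cells of an experiment of log2(TPM + 1), TPM being an abundance normalized for transcript length and library size, unless TPM is named. Because TPM carries no read depth, how deeply each cell was sequenced is unknown. Between 3806 and 10220 genes per cell (median 6584) had a TPM of at least 1, which is the detection limit used throughout, and mitochondrially encoded genes made up 0.362% to 32.5% of TPM. Experiments held 3 to 18 cells. The smallest, experiment 1 of DMSO at 16 hours, also had the most genes per cell (9995) and the highest mean of the 20 trophectoderm (outer layer) markers, 3.70 against 1.05 to 2.23 in the other 17 experiments. Of the 5 defining inner-cell markers none was at 0 throughout a group, and Pou5f1 was detected in all cells of every group. Nanog, Gata6 and Sall4 were detected in most cells of each group, while Sox2 was detected in 19 of 31 (DMSO) and 22 of 31 (LY) cells at 16 hours and in 17 of 28 and 12 of 24 at 24 hours, against 19 of 19, 17 of 22 and 14 of 14 in fresh embryos. The trophectoderm regulator Cdx2 was detected in 1 of 19, 0 of 22 and 1 of 14 fresh cells by stage, in 8 of 31 (DMSO) and 1 of 31 (LY) cells at 16 hours, and in 2 of 28 and 5 of 24 at 24 hours. The mean of 19 primitive endoderm markers ran from 1.73 to 1.94 in the E3.25 experiments, from 1.79 to 2.74 at E3.75 and from 4.07 to 4.34 at E4.0.

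By role, the 10 genes start with the enzymes and their helper. Psap, on GRCm38 at chr10:60277627-60302597 (plus strand), encodes prosaposin, which is split into the saposins that present sphingolipids to lysosomal hydrolases. Ctsd (chr7:142375911-142388038, minus strand) encodes the aspartic protease cathepsin D, and Ctsb (chr14:63122462-63145923, plus strand) the cysteine protease cathepsin B. Lamp1 (chr8:13159161-13175338, plus strand) and Lamp2 (chrX:38401357-38456454, minus strand) encode the most abundant glycoproteins of the lysosomal membrane. Rragd (chr4:32983037-33022180, plus strand) encodes RagD, a GTPase that helps to recruit mTORC1 to that membrane and is itself a known target of the MiT/TFE factors. Of the ATG8 proteins, Map1lc3a (chr2:155276297-155278073, plus strand) and Map1lc3b (chr8:121590361-121598760, plus strand) encode LC3A and LC3B and Gabarapl2 (chr8:111940703-111953612, plus strand) encodes GATE-16. Sqstm1 (chr11:50199366-50210827, minus strand) encodes p62, the receptor that ties ubiquitinated cargo to LC3 and is consumed with it. All are annotated as protein-coding.

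The MiT/TFE factors bind the E-box CACGTG, often as part of a longer element in lysosomal promoters, so the promoters were searched for these letters, which read the same on both strands. RefSeq windows of 250 bases before to 50 bases after the start (GRCm38.p6) were found for 8 of the 10 genes, Map1lc3a and Ctsb being the others. CACGTG occurred in 2 of the 8, Lamp1 and Ctsd, while 7.15% of all 32851 such windows hold it. Lamp1 had 4 copies, whose first bases lay 61, 45, 28 and 15 bases before the start, and Ctsd had 2, at 245 and 98 bases. These distances are counted from the RefSeq start. For Ctsd the gene span given above begins further upstream than that start, so the copy at 98 bases lies inside the span. The copy of Ctsd at 98 bases is part of the palindrome TCACGTGA, which contains CACGTG and occurs in 0.974% of the windows. One copy from each gene is shown with 10 bases on either side and the motif in capitals, Lamp1 at chr8:13159106-13159131 (plus strand) and Ctsd at chr7:142387910-142387935 (minus strand). A match is a description of the letters, not of binding.
Lamp1: gtccagcgccCACGTGatgccgactg
Ctsd: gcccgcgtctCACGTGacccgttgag

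Reads of 3 of the 10 genes could be shared with a near copy. Among transcripts of the GENCODE vM21 annotation, 84.8% of the 50-base words of the processed pseudogene Gm6055 also occur in Map1lc3b, and 66.7% of those of Gm3724 in Gabarapl2. Over all cells the summed TPM of Gm6055 came to 9.94% of that of Map1lc3b and Gm3724 to 6.02% of that of Gabarapl2, so the levels of both genes depend on how reads were assigned. Ctsd shares 79.3% of the words of a transcript of Gm49369, which was listed at 0% of the TPM of Ctsd. The other 7 genes had no such copy at a limit of 50% of words.

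Across the 7 groups, 8 of the 10 genes had their lowest group mean at E4.0, Lamp1 and Ctsb being the others. E3.25 had the highest mean for Psap, Map1lc3a, Lamp1 and Rragd, 24 hours of LY for Sqstm1, Ctsd and Ctsb, and 16 hours of DMSO for Map1lc3b, Gabarapl2 and Lamp2. Groups next to each other in this order mostly did not separate: in 53 of 60 such neighbouring pairs the experiments overlapped. The widest clear steps were the one of 2.01 between DMSO at 16 hours (5.84 ± 0.40, SD, n = 3) and E3.75 (3.83 ± 0.13, SD, n = 2) for Map1lc3a, and the one of 1.81 between DMSO at 24 hours (7.73 ± 0.45, SD, n = 3) and E4.0 (5.92 ± 0.18, SD, n = 2) for Psap. Map1lc3b had a step of 1.13 between LY at 24 hours (11.08 ± 0.63, SD, n = 3) and E4.0 (9.95 ± 0.21, SD, n = 2). The plot of experiment means by group shows these steps and the overlaps between most other groups.

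**Figure D1:**
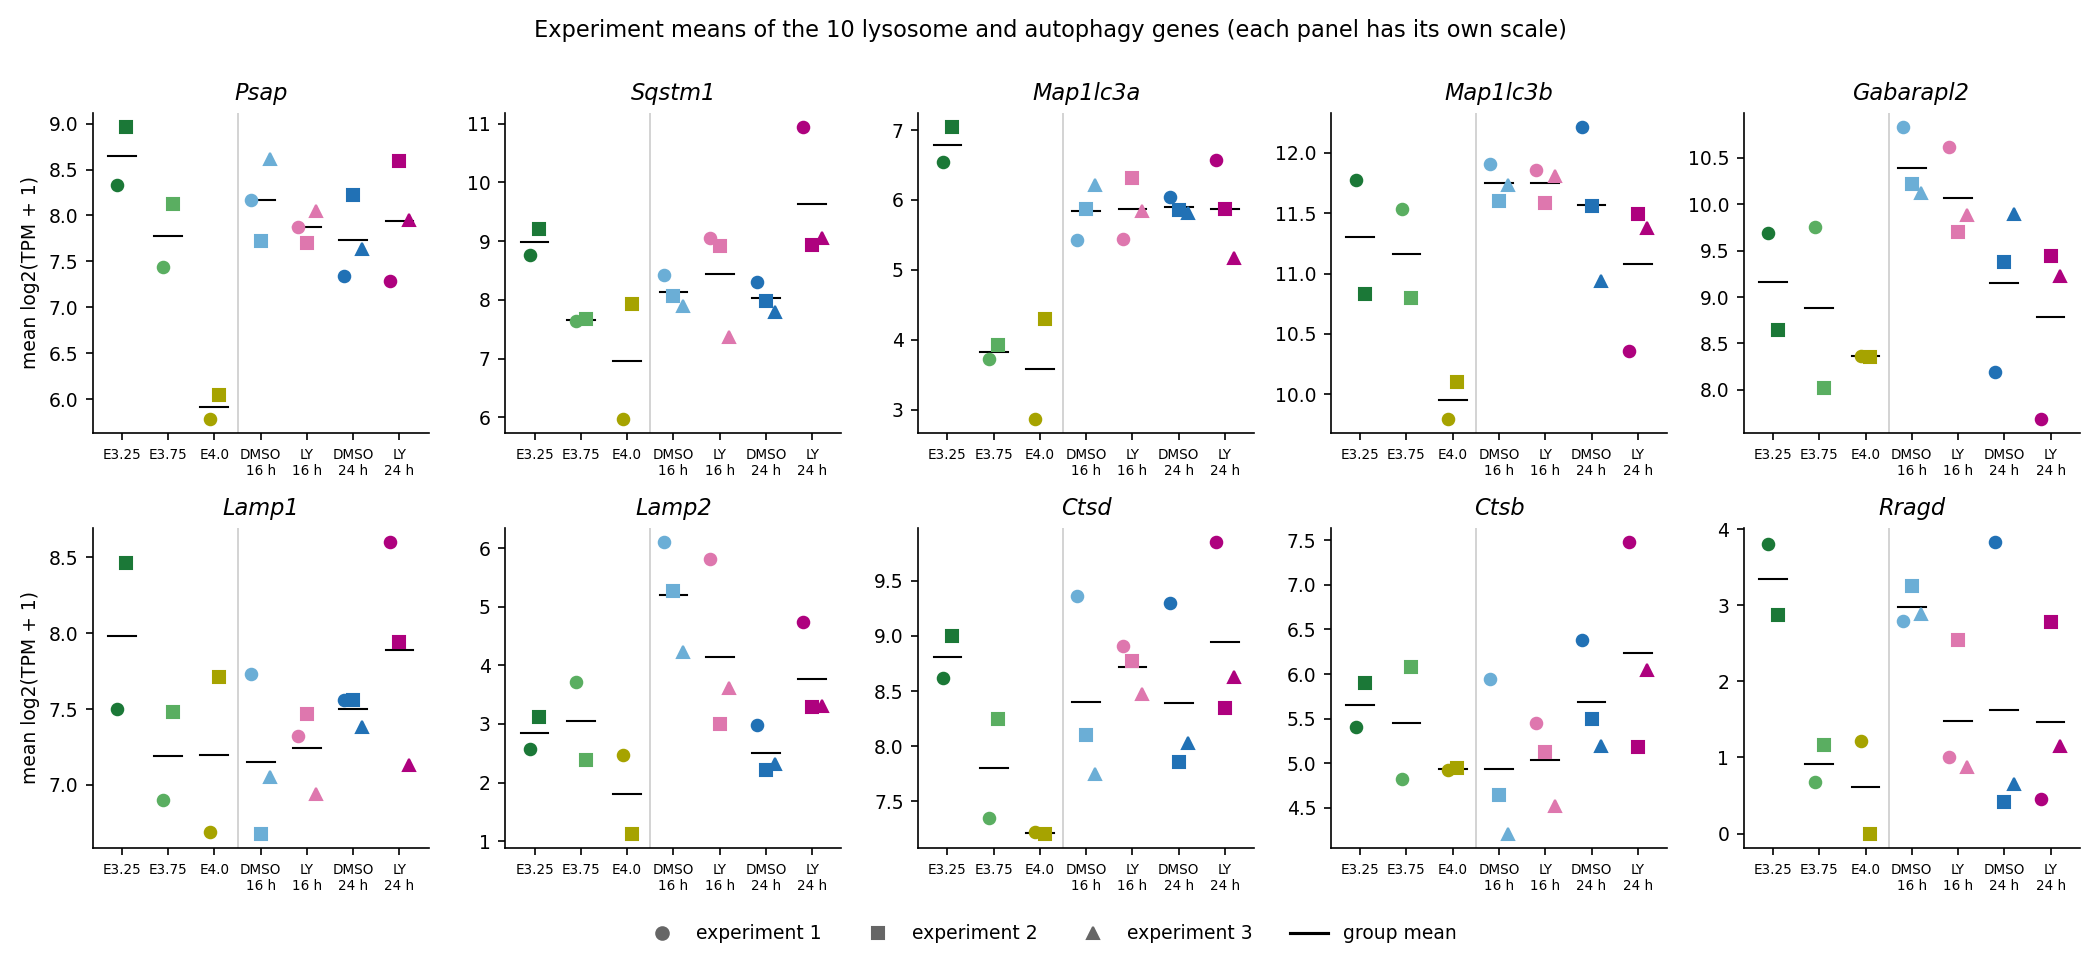
Mean log2(TPM + 1) over the cells of each experiment (y axis, scaled per gene) for the 10 genes in the 7 groups (x axis); symbols mark the experiment number, black bars the group mean, and the grey line parts fresh from cultured groups. The E4.0 points of Psap (5.79 and 6.05) lie below all other experiments, and those of Map1lc3a (2.87 and 4.29) overlap only with E3.75.

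The clearest differences among the 10 genes were between fresh stages. Prosaposin and LC3A transcripts fell from E3.25 to E4.0, and the other 8 genes had lower means at E4.0 without passing the test. Psap stood at 8.33 and 8.96 in the E3.25 experiments, 7.44 and 8.12 at E3.75 and 5.79 and 6.05 at E4.0. The groups do not overlap, and every later stage lies below the one before it. The difference from E3.25 to E4.0 was -2.73 (SE 0.63, adjusted p = 0.0262, limma with Benjamini-Hochberg adjustment over 11680 genes, n = 2 experiments a stage), a 6.64-fold lower level on the TPM + 1 scale. In single cells the median of Psap was 402 TPM at E3.25, 206 TPM at E3.75 and 61.5 TPM at E4.0, and every cell of all 3 stages had it above the detection limit. The middle 50% of E4.0 cells lay between 26.1 and 99.2 TPM, against 289 and 599 TPM at E3.25. Single cells overlapped, the highest E4.0 cell being at 424 TPM and the lowest E3.25 cell at 152 TPM.

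Map1lc3a stood at 6.54 and 7.04 at E3.25, 3.73 and 3.92 at E3.75 and 2.87 and 4.29 at E4.0. The E3.25 experiments lie above those of the later fresh stages, while E3.75 and E4.0 overlap. From E3.25 to E4.0 the difference was -3.22 (SE 0.69, limma adjusted p = 0.0154), a 9.29-fold lower level on the TPM + 1 scale. Its median over cells was 111 TPM at E3.25, 21.6 TPM at E3.75 and 10.4 TPM at E4.0, and it was detected in 19 of 19, 19 of 22 and 12 of 14 cells. LC3A is 1 of 2 LC3 proteins among the 10 genes. The other, Map1lc3b, stood at 11.77 and 10.83 at E3.25 and 9.80 and 10.10 at E4.0, a difference of -1.34 (SE 0.55, limma adjusted p = 0.297).

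The background of this comparison was 1.67% of genes called, and 0.265% called lower, against 2 of the 10 genes called, both lower. All 10 differences were below 0, with a median of -1.47, while 39.2% of all genes were below 0 and their median was 0.20. In run 1 alone 9 of the 10 were below 0 with a median of -0.83, and in run 2 alone all 10 with a median of -2.57. In 9 of the 10 genes both E4.0 experiments lay below both E3.25 experiments, Lamp1 being the exception, and 15.2% of all genes showed that order. Among the 8 that did not pass, Rragd had the largest difference (-2.73, SE 0.97, adjusted p = 0.203), followed by Sqstm1 (-2.03, SE 0.77, adjusted p = 0.247) and Ctsd (-1.60, SE 0.70, adjusted p = 0.337), all from limma. For Lamp2 (-1.05), Gabarapl2 (-0.80), Lamp1 (-0.78) and Ctsb (-0.72) the 95% intervals of the difference included 0. The plot of E4.0 minus E3.25 sets these intervals under the distribution of all genes.

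**Figure D2:**
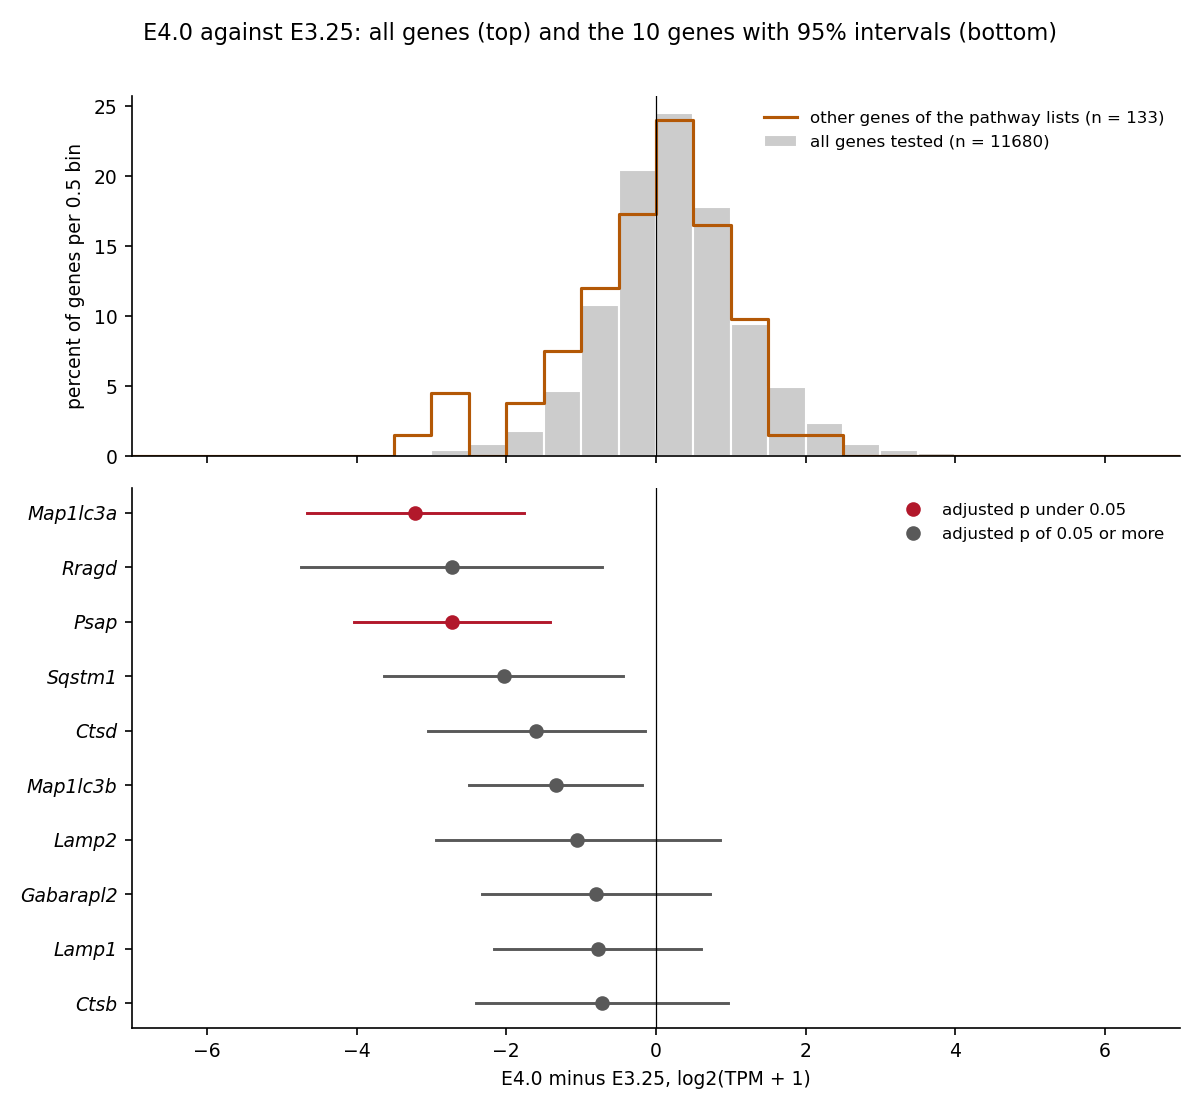
E4.0 minus E3.25 on the log2(TPM + 1) scale (x axis): top, the percent of genes per bin for all 11680 genes tested (grey) and the other 133 genes of the pathway lists (line); bottom, the 10 genes with 95% intervals from limma, red where the adjusted p was under 0.05. All 10 points lie below 0 and 4 of the 10 intervals reach past it, while the median of all genes was 0.20.

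Both calls rest on few experiments. Leaving out any 1 of the 4 experiments ended the Psap call (difference -3.05 to -2.41): its adjusted p was 0.0539 without E3.25 experiment 1, 0.241 without E3.25 experiment 2, 0.0978 without E4.0 experiment 1 and 0.0839 without E4.0 experiment 2, from limma. The Map1lc3a call ended without E3.25 experiment 1 (0.0533), E3.25 experiment 2 (0.173) or E4.0 experiment 1 (0.137) and stayed without E4.0 experiment 2 (adjusted p = 0.011, limma). Cells of sequencing run 1 alone gave -2.31 for Psap (adjusted p = 0.408) and -2.61 for Map1lc3a (0.466), and those of run 2 alone gave -3.48 (0.00536) and -3.64 (0.0317), from limma. A fit of the 2 stages alone, with 2 residual degrees of freedom, gave an adjusted p of 0.398 for both. The E4.0 experiments also differed in quality: they had 7236 to 7682 genes per cell against 6078 to 6393 at E3.25, and 14.3% to 16.1% mitochondrial TPM against 3.04% to 10.8%. With the number of genes as a covariate the differences were -2.86 for Psap (adjusted p = 0.0255) and -2.95 for Map1lc3a (0.029), and after rescaling without mitochondrial genes and spike-ins they were -2.59 (0.0307) and -3.11 (0.0182), from limma. Without the 22 cells of all groups under 5000 genes, Psap was at -2.73 (adjusted p = 0.0449) and Map1lc3a at -2.79 (0.106, limma). The primitive endoderm markers were higher in mean over the same span, as given above, and their part in these differences was not tested.

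The intermediate steps gave no call among the 10 genes. From E3.75 to E4.0, where 1.41% of all genes were called, Psap had the largest difference (-1.86, SE 0.63, limma adjusted p = 0.225), and the median of the 10 genes was -0.56 against 0.29 for all genes (-0.27 in run 1 alone and -0.99 in run 2 alone). This comparison uses the same E4.0 experiments as the one above. From E3.25 to E3.75 limma called 0% of genes at an adjusted p under 0.05, while 536 genes and 2 of the 10, Map1lc3a and Rragd, had an unadjusted p under that value. Map1lc3a differed by -2.97 (SE 0.69, unadjusted p = 0.000334, adjusted p = 0.781), with -1.74 in run 1 alone and -3.82 in run 2 alone. Rragd differed by -2.42 (SE 0.97, adjusted p = 1.0, limma), from 3.81 and 2.87 at E3.25 to 0.68 and 1.16 at E3.75. The median of the 10 genes was -0.83 against -0.09 for all genes, and -0.55 without E3.75 experiment 1. Among the other list genes, of which none passed, the smallest p-values belonged to Atg9a, the membrane scramblase of early autophagosomes (-2.86, SE 0.91), the mitophagy receptor Bnip3l (-2.38, SE 0.80) and the ATG8 gene Gabarapl1 (-2.35, SE 0.85), each at a limma adjusted p of 1.0.

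Of 7 lists of lysosome and autophagy genes, 133 tested genes were not among the 10. From E3.25 to E4.0 their median difference was 0.09 and 47.4% were below 0. By list, the medians ran from -0.51 for autophagy initiation and conjugation (24 genes, 14 below 0) to 0.53 for the MiT/TFE factors and the nutrient sensor (22 genes, 5 below 0). Hydrolases and their cofactors had a median of 0.17 (30 genes, 13 below 0), lysosomal membrane proteins 0.15 (13 genes, 6 below 0) and the vacuolar ATPase, the proton pump that acidifies the lysosome, -0.02 (16 genes, 9 below 0). Of the 133, 3 passed the test, 2 higher and 1 lower. The lower one was Calcoco2, which encodes the autophagy receptor NDP52: 11.47 and 12.26 at E3.25 and 7.79 and 9.89 at E4.0, a difference of -3.03 (SE 0.62, limma adjusted p = 0.00964). Its call ended without E3.25 experiment 2 (adjusted p = 0.155) or E4.0 experiment 1 (0.151), in run 1 alone (-2.20, 0.504), with the 2 stages alone (0.41) and without the cells under 5000 genes (0.0663).

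The 2 of the 133 genes called higher, Mitf and Tfec, encode MiT/TFE factors, beside 164 of all 11680 genes called higher. The other factors, Tfeb (0.12) and Tfe3 (0.68), did not pass. Mitf was at 0.01 and 0.08 at E3.25 and at 0.71 and 2.29 at E4.0 (difference 1.45, SE 0.31, limma adjusted p = 0.0156), detected in 0 of 19 and 6 of 14 cells. Tfec was at 0.04 and 0.00 at E3.25 and at 1.30 and 0.74 at E4.0 (difference 1.00, SE 0.20, limma adjusted p = 0.00727), detected in 0 of 19 and 5 of 14 cells. A count of 0 of 19 cells allows a share of up to 15.8%, taken as 3 cells of 19 and for counting error only. At E3.75 Mitf was detected in 1 of 22 cells and Tfec in 0 of 22. Among the fresh stages, both genes thus met the filter on low values only at E4.0, where they were called higher. With the filter set at 50% of cells neither gene was tested, so that setting is not among their 18 alternatives. Against E3.75 both also rose, Mitf by 1.28 (SE 0.31, adjusted p = 0.0433) and Tfec by 1.00 (SE 0.20, adjusted p = 0.00908), with the same E4.0 experiments. These are low transcripts found in a minority of E4.0 cells: the median over cells gave 0.00 for Tfec at an adjusted p of 1.0, and Mitf was at 0.66 without E4.0 experiment 2 (0.125) and 2.24 without E4.0 experiment 1 (1.34e-06, limma). Against E3.25 the Mitf call also ended without either E3.25 experiment (0.0957 and 0.127), in run 1 alone (0.257), with the 2 stages alone (0.438), with the median over cells (1.35, adjusted p = 0.312) and under quantile normalization (0.0549), and it stayed in 11 of 18 alternatives. The Tfec call ended without E3.25 experiment 2 (0.0895), in run 1 alone (0.48, adjusted p = 0.77, limma) and with the 2 stages alone (0.429), and stayed in 14 of 18. Against E3.75 leaving out either E3.75 experiment ended both calls, with adjusted p of 0.277 and 0.147 for Mitf and 0.0831 and 0.0881 for Tfec, and leaving out E4.0 experiment 2 ended that of Mitf (0.48, adjusted p = 0.519, limma). Of 18 alternatives in that comparison, 7 kept the Mitf call and 13 that of Tfec.

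Lamp2 and Rragd were below the detection limit in many cells, so their means combine the share of cells above it with the level in those cells. With the depth unknown, a value below the limit does not show that the transcript was missing, and some such cells were above 0: of the 5 E3.25 cells without detected Rragd, 2 were at 0. Lamp2 was detected in 12 of 19 cells at E3.25 (63.2%, exact 95% interval 38.4% to 83.7%, counting error only), 17 of 22 at E3.75 and 8 of 14 at E4.0 (57.1%, 28.9% to 82.3%). In culture with DMSO it was found in 31 of 31 cells after 16 hours and 19 of 28 after 24 hours, and with LY in 26 of 31 and 19 of 24. Rragd was detected in 14 of 19 cells at E3.25 (73.7%, 48.8% to 90.9%), 5 of 22 at E3.75 (22.7%, 7.82% to 45.4%) and 3 of 14 at E4.0 (21.4%, 4.66% to 50.8%). Under DMSO it was found in 25 of 31 cells after 16 hours and 11 of 28 after 24 hours, and under LY in 17 of 31 and 13 of 24. Cells of 1 date are not independent, so these shares carry no test between groups. Psap, Map1lc3b, Gabarapl2, Lamp1 and Ctsd were detected in every one of the 169 cells, Sqstm1 in all but 1 (at E4.0) and Ctsb in all but 2. The plot of single cells shows that Psap was lower in most E4.0 cells than in any E3.25 cell. Rragd spread from 0 upward at E3.25 and after 16 hours of DMSO. In most cells of E3.75 and E4.0 Rragd was at or near 0.

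**Figure D3:**
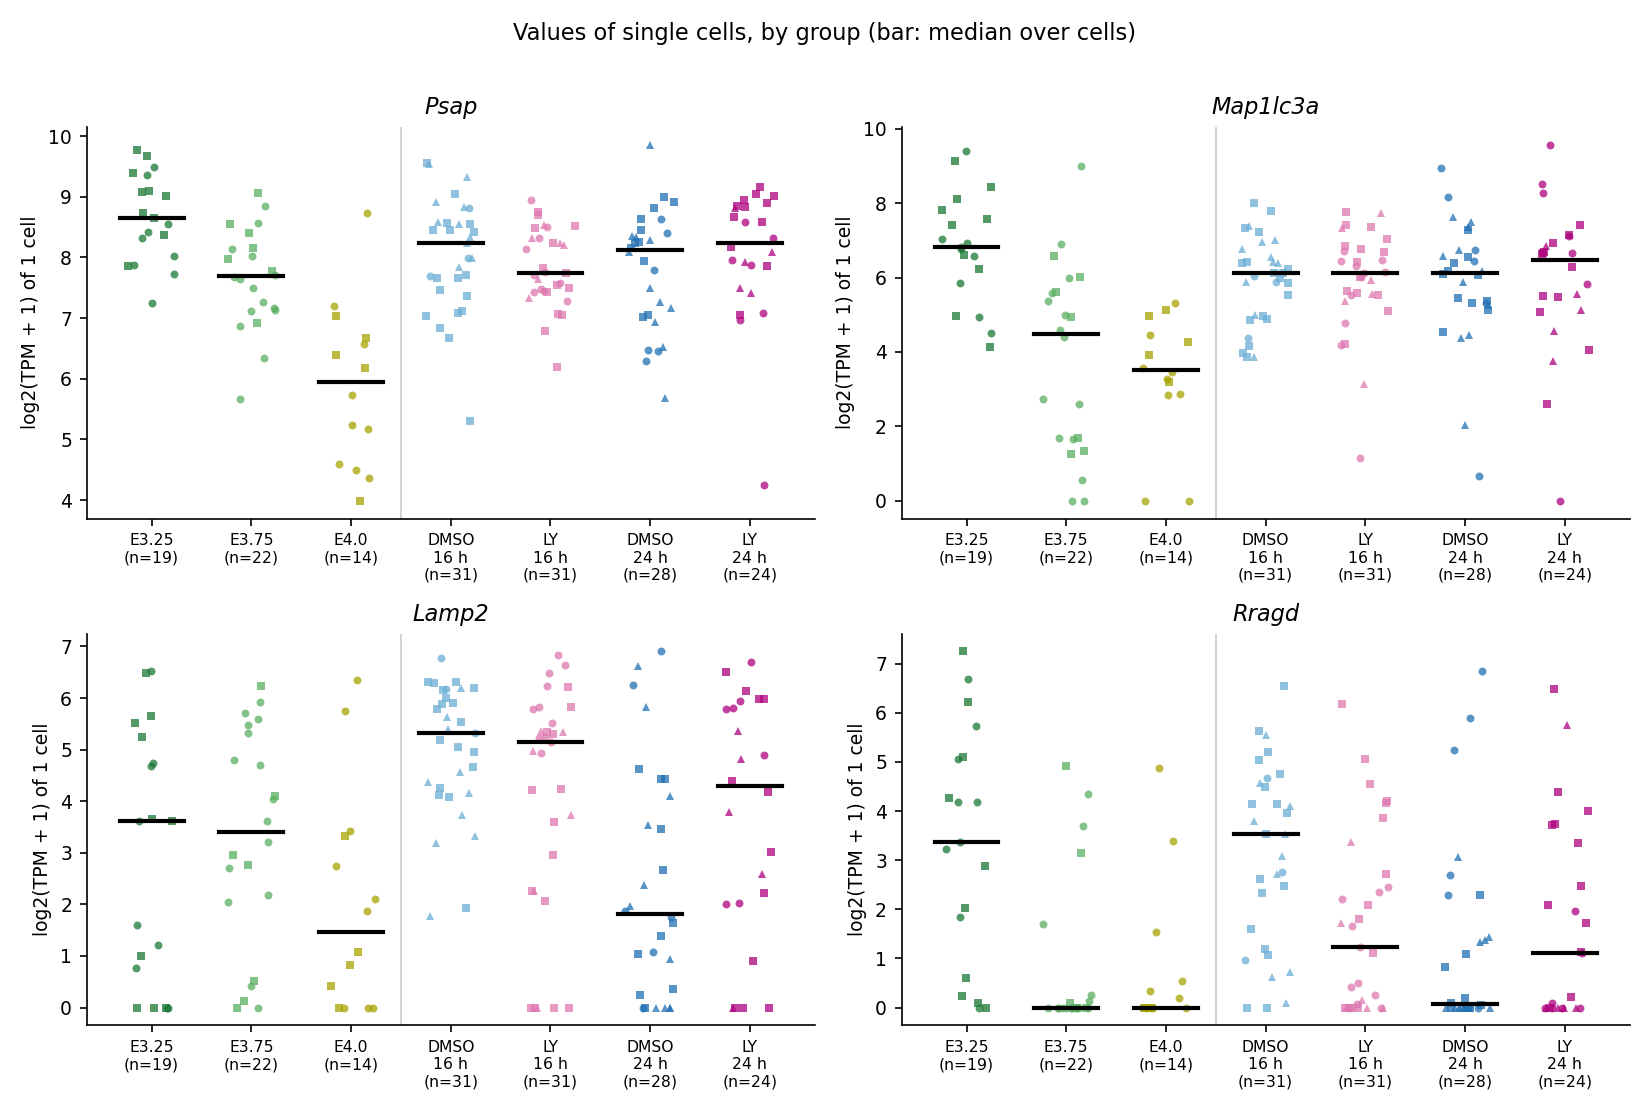
Log2(TPM + 1) of every cell (y axis) by group (x axis, with the number of cells) for Psap, Map1lc3a, Lamp2 and Rragd; symbols mark the experiment and bars the median over cells. Psap was above the detection limit in every cell, while the median of Rragd was 0 at E3.75 and E4.0.

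The question put to culture was how the 10 genes differ between embryos cultured with LY and with DMSO. At neither time did LY change 1 of them past the threshold, and limma called 0% of all genes (641 at 16 hours and 615 at 24 hours had an unadjusted p under 0.05, among them 0 and 1 of the 10). At 24 hours the autophagy receptor Sqstm1 had the largest difference. It stood at 8.30, 7.99 and 7.80 with DMSO and at 10.94, 8.93 and 9.05 with LY. The difference was 1.61 (SE 0.63, 95% interval 0.30 to 2.91, unadjusted p = 0.0182, limma adjusted p = 0.899). The single high LY experiment, the first, also had the fewest genes per cell of all 18 (4556). Without it the difference was 0.96 (limma adjusted p = 1.0), and without the cells under 5000 genes it was 1.92 (0.628).

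Lamp2 at 24 hours stood at 2.98, 2.21 and 2.31 with DMSO and at 4.73, 3.28 and 3.31 with LY. The difference was 1.28 (SE 0.74, 95% interval -0.27 to 2.82, limma adjusted p = 0.899). This value differed between runs: it was -0.09 in run 1 alone and 2.42 in run 2 alone, and 0.79 without LY experiment 1. In run 1 alone LY experiment 3 held 1 cell and DMSO experiment 3 held 2. Ctsd was higher with LY on each date by a similar amount (0.55, 0.49 and 0.60), with a mean difference of 0.54 (95% interval -0.64 to 1.73). Thus 3 of the 10 genes, Sqstm1, Lamp2 and Ctsd, were higher with LY on all 3 dates at 24 hours, where 6.33% of all genes were. The median of the 10 was 0.30 against -0.20 for all genes. It was 0.13 without LY experiment 1, 0.16 without LY experiment 2, 0.48 without LY experiment 3 and 0.65 without DMSO experiment 1. With the number of genes as a covariate it was 0.41, against 0.04 for all genes.

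At 16 hours 5 of the 10 genes had a higher mean with LY and 5 a lower one, between -1.50 and 0.32. The largest difference was that of Rragd, which stood at 2.80, 3.26 and 2.88 with DMSO and at 1.01, 2.55 and 0.88 with LY. It came to -1.50 (SE 0.79, 95% interval -3.15 to 0.15, limma adjusted p = 0.854). By run it was -2.58 in run 1 alone and -0.17 in run 2 alone. Psap, Gabarapl2, Lamp2 and Rragd were lower with LY on all 3 dates, 4 of the 10 genes, where 35.7% of all genes were. None was higher on all 3 dates: Sqstm1 (0.63, 0.86 and -0.53) and Ctsd (-0.44, 0.67 and 0.72) were higher on 2, each with a mean difference of 0.32. The median of the 10 was 0.01 against -0.33 for all genes, and lay between -0.27 in run 1 alone and 0.22 under quantile normalization. The median of all genes moved as well. Without DMSO experiment 1, the one of 3 cells, it was -0.05, beside -0.01 for the 10. Leaving out any other experiment gave -0.53 to -0.21 for all genes. With the number of genes as a covariate the median was 0.16 for the 10 and -0.01 for all genes. Experiments had 5809 to 8303 genes per cell with LY and 7102 to 9995 with DMSO. Map1lc3a and Map1lc3b were nearly level, with differences of 0.02 (95% interval -1.15 to 1.20) and 0.00 (-0.94 to 0.94), and these intervals leave room for changes of up to about 1 on the log2 scale in either direction.

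The LY effects at 24 and 16 hours were also compared with each other. None of the 10 genes passed, and limma called 0% of all genes (291 had an unadjusted p under 0.05). The only one of the 10 with an unadjusted p under 0.05 was Lamp2, with a difference between the effects of 2.33 (SE 1.05, unadjusted p = 0.0379, adjusted p = 1.0). With the dates as pairs, no gene passed in any of these comparisons. The plot of LY minus DMSO by date shows the single dates beside the intervals.

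**Figure D4:**
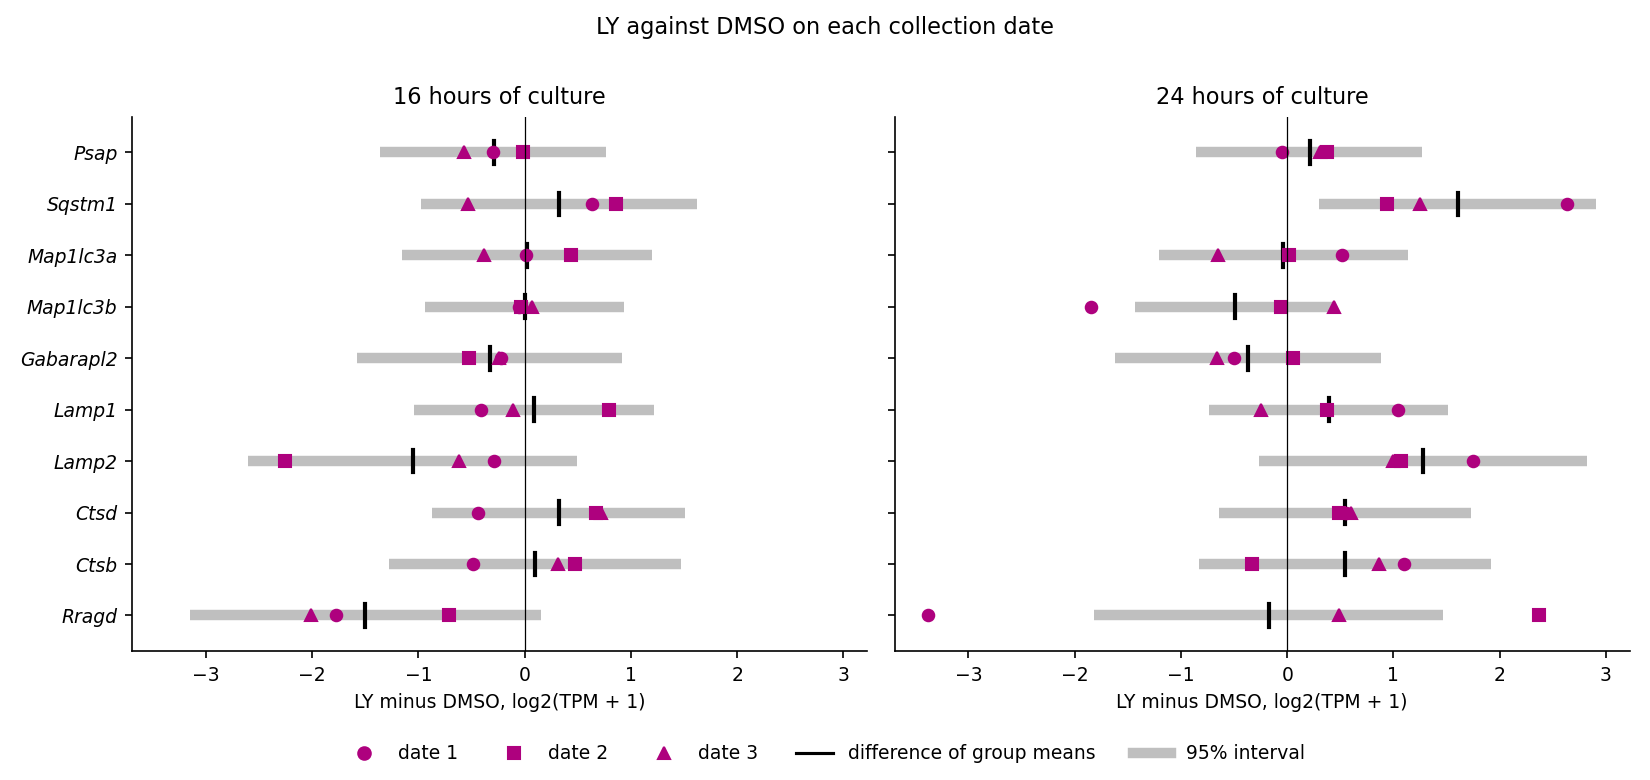
LY minus DMSO on the log2(TPM + 1) scale (x axis) for each gene (y axis) after 16 and 24 hours; symbols are the 3 dates, the black tick the difference of group means and the grey bar its 95% interval from limma. The 3 dates of Lamp2 lie at -0.29, -2.26 and -0.62 at 16 hours and at 1.75, 1.07 and 1.00 at 24 hours, and only the interval of Sqstm1 at 24 hours lies clear of 0.

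Of the other genes of the pathway lists none passed with LY. At 16 hours the 3 smallest p-values belonged to Atg7, the activating enzyme of ATG8 conjugation (-2.70, SE 0.81, adjusted p = 0.739), the acid sphingomyelinase Smpd1 (-1.95, SE 0.69, adjusted p = 0.846) and the membrane protein Cd68 (-1.89, SE 0.77, adjusted p = 0.854). At 24 hours they belonged to the lysosomal calcium channel Mcoln1 (-2.14, SE 0.71, adjusted p = 0.899), the tethering subunit Vps16 (-2.19, SE 0.74, adjusted p = 0.899) and the fucosidase Fuca1 (-2.00, SE 0.74, adjusted p = 0.899), all from limma. Each was lower with LY, as were 71.4% of the 133 list genes at 16 hours and 66.9% at 24 hours, beside 76.4% and 67.2% of all genes. For the difference between the LY effects they belonged to Mcoln1 (-2.59, SE 1.01), Vps16 (-2.37, SE 1.05) and Depdc5, a subunit of the GATOR1 inhibitor of mTORC1 (-0.89, SE 0.42), each at a limma adjusted p of 1.0.

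None of the 10 genes passed between solvent-treated cultures or between these and fresh embryos. The largest differences involving 16 hours of DMSO were those of Lamp2, which stood at 6.10, 5.26 and 4.23 there. It was at 2.57 and 3.12 at E3.25 and at 2.98, 2.21 and 2.31 after 24 hours of DMSO. The difference was 2.35 from E3.25 (SE 0.83, limma adjusted p = 0.25), and from 16 to 24 hours it was -2.70 (SE 0.74, adjusted p = 0.279). With the log2 of the mean TPM in place of the mean log2 value they were 1.06 (adjusted p = 0.628) and -1.36 (0.947). The highest value belongs to the experiment of 3 cells with the high trophectoderm markers, and without it the differences were 1.90 (adjusted p = 0.468) and -2.25 (0.741, limma). In these comparisons limma called 0.0514% and 0.00856% of all genes and 0 of the 10, and Lamp2 was the only one of the 10 with an unadjusted p under 0.05 (all genes: 1599 and 1268). Between 24 hours of DMSO and E3.75, where 0% of genes were called (370 at an unadjusted p under 0.05), Map1lc3a was the only one of the 10 with an unadjusted p under 0.05: 6.04, 5.85 and 5.82 against 3.73 and 3.92, a difference of 2.08 (SE 0.63, limma adjusted p = 1.0), with -0.07 in run 1 alone and 3.81 in run 2 alone.

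None of the other list genes passed in these DMSO comparisons either. From 16 to 24 hours of DMSO the smallest p-values were those of the amino acid sensor Slc38a9 (-1.14, SE 0.34, adjusted p = 0.316), the ferritin receptor Ncoa4 (-2.13, SE 0.68, adjusted p = 0.336) and the proton pump accessory subunit Atp6ap2 (-2.26, SE 0.78, adjusted p = 0.355). Against E3.25, 16 hours of DMSO gave higher means of Slc38a9 (1.18, SE 0.38, adjusted p = 0.232), the fusion SNARE Vamp7 (1.85, SE 0.62, adjusted p = 0.232) and Vmp1, a scramblase of the endoplasmic reticulum (2.04, SE 0.72, adjusted p = 0.25). Against E3.75, 24 hours of DMSO gave higher means of Atg7 (2.47, SE 0.91), Atg9a (2.19, SE 0.83) and the phosphoinositide reader Wipi2 (1.50, SE 0.60), each at an adjusted p of 1.0, all from limma. In the same order, 71.4%, 33.8% and 27.8% of the 133 list genes were below 0, beside 69.7%, 33.3% and 41% of all genes.

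Among themselves the 10 genes had mostly low correlations from cell to cell. Across the 169 cells, after the mean of each experiment was taken out, the 45 pairs had Pearson correlations from -0.16 to 0.439 with a median of 0.048. The highest were those of Lamp1 with Ctsd (0.439) and of Sqstm1 with Ctsd (0.393). Across the 18 experiment means, which share libraries and differences in quality, the same pairs ran from -0.54 to 0.765 with a median of 0.35. These are descriptions, and cells of 1 experiment share their source. The values are not set beside those of other gene pairs. Lamp2 and Rragd were below the detection limit in many cells, and how far this lowers their correlations was not tested.

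At E4.0, where endoderm and epiblast markers were both high, several of the genes were lower in cells with more primitive endoderm marker signal. Over the 14 cells the correlation with the mean of the 19 endoderm markers was -0.85 for Gabarapl2 (Spearman -0.78), -0.66 for Lamp2 (-0.38), -0.61 for Map1lc3b (-0.40), -0.59 for Rragd (-0.37), -0.56 for Psap (-0.48), -0.55 for Sqstm1 (-0.75) and -0.37 for Ctsd (-0.45). The other 3 were at 0.24 for Lamp1 (0.20), 0.19 for Map1lc3a (0.22) and 0.04 for Ctsb (0.01). With the mean of the 17 epiblast markers Sqstm1 correlated at 0.58 and Lamp1 at 0.51, and Lamp2 at -0.58. The remaining genes lay between -0.18 for Map1lc3b and 0.31 for Ctsd. Lamp2 was thus negative with both sets of markers. With the number of genes detected per cell the E4.0 correlations ran from -0.04 for Gabarapl2 to 0.43 for Psap. At E3.75 (22 cells) the correlations with the endoderm markers were 0.51 for Lamp1, 0.43 for Ctsb, 0.35 for Ctsd, 0.27 for Psap and 0.24 for Sqstm1, and -0.50 for Lamp2, -0.35 for Gabarapl2, -0.18 for Map1lc3b, -0.17 for Map1lc3a and -0.09 for Rragd, so Psap, Sqstm1, Ctsd and Map1lc3a had the opposite sign from E4.0. With the epiblast markers the E3.75 correlations ran from -0.40 for Map1lc3b to 0.50 for Ctsb. The 2 E3.75 experiments themselves differed in the mean of the endoderm markers, 1.79 and 2.74. In the same order Psap stood at 7.44 and 8.12, Ctsd at 7.35 and 8.25, Sqstm1 at 7.65 and 7.68 and Map1lc3a at 3.73 and 3.92. How far the signs at E3.75 follow this difference between dates was not tested. These values come from few cells of 2 dates a stage and are given as a description.

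For the genes that passed a test, the closest patterns over the 18 experiment means were sought among all genes tested. Map1lc3a was most like Sfn (Pearson r = 0.894), Gulo (0.856) and Pttg1ip (0.847). Psap was most like Olfr1459 (0.850), Syncrip (0.802) and Gulo (0.802). The 18 means share libraries and quality differences, so these values only rank likeness.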

How the data were processed

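Values were analysed for 169 cells in 18 experiments of 7 groups. The authors deposited 1 table of TPM values with 170 columns, and column names were matched to sample titles. The submitters' processing notes list STAR 2.7.9a, RSEM 1.3.3, cutadapt 2.9 and bcl2fastq 2.20.0, and build mm10. Their settings and the annotation are not given in the sources used here. Of 186 labelled samples, 16 had no matching column and were not analysed here. The 92 spike-in lines were left out of the tests. A pair of E3.25 columns whose titles differ by a suffix correlated at 0.824, above any other cell of their experiment (0.783), and was averaged. A pair of the 24-hour LY group (0.594 against 0.724) was kept apart.

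Libraries start at the 3′ end while TPM divides by transcript length, so levels were compared within a gene only. A gene entered the tests where 25% or more of the cells of any group reached a TPM of 1. Experiment means of log2(TPM + 1) were fitted for all 7 groups together using limma 3.58.1 (R 4.3.3) by lmFit, contrasts.fit and eBayes with a trend. There were 11 residual degrees of freedom, tests were two-sided, and p-values were adjusted by Benjamini-Hochberg within each comparison (threshold 0.05). A difference on this scale understates the change of low genes. The procedure was also run on simulated data with independent noise for each gene. Changes were added there only to genes above the median level, so low genes were not covered. Detection intervals are exact Clopper-Pearson. Near copies were sought with 50-base words of the transcripts.

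The dates pair the LY and DMSO arms by label. Across genes, the deviations of both arms of a date from their group means correlated at 0.393, 0.121 and 0.317 at 16 hours and at 0.231, 0.120 and 0.0732 at 24 hours. The 10 genes, the pathway lists and the marker lists were chosen with earlier results of these data known. Named beyond the 10 genes were list genes past the threshold (at most 10 by smallest p) or, where none passed, the 3 with the smallest p, and for each gene that passed the 3 most correlated genes. Lamp1 and Ctsd promoters and the near copies were chosen after seeing the sequences. Alternatives covered pseudocounts of 0.1 and 10, the filter, the summary over cells, weights, scaling, sequencing runs, the groups fitted, the date pairs and each experiment left out. Fits of 1 sequencing run rest on fewer cells, in some experiments on 1 cell. Leaving out cells under 5000 genes was added after seeing the data.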

Additional observations from a re-analysis of the deposited data

Results flagged for a closer look

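With cells of both sequencing runs, LY minus DMSO of Lamp2 was below 0 on every date at 16 hours and above 0 on every date at 24 hours. By date, it came to -0.29, -2.26 and -0.62 after 16 hours of culture. After 24 hours it came to 1.75, 1.07 and 1.00, and the difference between both effects was 2.33 (SE 1.05, 95% interval 0.14 to 4.51, unadjusted p = 0.0379, limma adjusted p = 1.0), so it did not pass the threshold. Of all 11680 genes, 312 (2.67%) lay on opposite sides on all dates, in this direction or the reverse, and 1 of the 10 genes did. In run 1 alone the effect at 24 hours was -0.09, so its sign was not opposite there. The difference between the effects was 1.33 in run 1 alone and 2.93 in run 2 alone, and leaving out single experiments gave 1.76 to 3.16. Culture time cannot be told apart from collection date, since the 16-hour dates are all later.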

How the results depend on the processing

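The count of the 10 genes that passed was recomputed 190 times over the 9 comparisons and moved by over 1.5 times in 9 of them. From E3.25 to E4.0 the count of 2 became 0 in run 1 alone, 4 in run 2 alone (Ctsd, Map1lc3b, Psap and Map1lc3a), 0 with only the groups compared, 1 without cells under 5000 genes, and 0 to 1 when single experiments were left out. From E3.75 to E4.0 it went from 0 to 1 in run 2 alone (Map1lc3b, -2.50, limma adjusted p = 0.0219). The cause was not tested. Psap and Map1lc3a each passed in 13 of 19 alternatives and were below 0 in 19 of 19. Of 1900 recomputed differences of the 10 genes, 0 reversed past the threshold, 152 changed sign without passing, 12 lost the call and 3 gained it. Quantile normalization moved the median of all genes from E3.25 to E4.0 from 0.20 to -0.01 and that of the 10 from -1.47 to -1.77. The number of all genes called there ran from 0 with only the groups compared, which leaves 2 residual degrees of freedom, to 316 in run 2 alone, beside 195.

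With the dates as a replicate block, which pairs the arms, 0 of the 10 genes passed at either time or for the difference between the LY effects, and the block changed no call. Sqstm1 at 24 hours then had an adjusted p of 0.586 and Rragd at 16 hours 0.587 (limma). TPM keeps no depth, so what depth limits could not be measured, and 2 to 3 experiments a group limit the precision.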
